A study of Mus musculus with 4 samples.

Results

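The genes described here are 53 members of the actin cytoskeleton and its myosin motors, among 41214 gene identifiers counted in megakaryocytes, the large marrow cells from which platelets are shed. They were chosen by symbol, from actin itself to the proteins that nucleate, cut, cap, bundle and pull its filaments, and every symbol matched 1 mouse Ensembl identifier. The RNA came from C57Bl/6 mice 8 weeks old. Cells lacking lineage markers and carrying cKit, CD41 and CD61 were sorted from tibiae, femora and humeri. The series holds 4 libraries, 1 per group: Gfi1b WT with PF4-Cre, Gfi1b KO with PF4-Cre, Gfi1b WT with ROSA-Cre and Gfi1b KO with ROSA-Cre, so the wild-type libraries carry a Cre label too. PF4-Cre is driven by the promoter of platelet factor 4, which is active in the megakaryocyte lineage. The labels do not say how the ROSA-Cre allele was switched on, which part of Gfi1b was removed, or whether a library came from 1 mouse or from several.

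Gene counts per library ran from 21835165 to 61652843, with the ROSA-Cre pair the shallower. A count of 0 therefore allowed 0.0487 to 0.137 CPM (a gene's reads scaled to a common library size; the limit stands for 3 counts of the library total), and covers counting error only. Gfi1b, a zinc finger repressor of blood cell genes, went from 10137 counts (wild-type) to 84744 (knockout) with PF4-Cre, and from 5864 to 55122 with ROSA-Cre. It was thus higher in both libraries labelled knockout. A gene count does not show which exons were read, so the labels could not be checked this way, and "knockout" below means labelled knockout. All 14 megakaryocyte markers looked for were detected in every library, including Itga2b (CD41), Itgb3 (CD61) and Kit of the sort gate, with a summed level of 7562, 8267, 10463 and 7491 CPM (here and below, sets of 4 values give wild-type then knockout of PF4-Cre, followed by wild-type then knockout of ROSA-Cre).

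Actin filaments grow from monomers held ready by profilin and thymosin, are nucleated as branches by the Arp2/3 complex or as straight filaments by formins, and are recycled by cofilin, coronin and gelsolin. Nonmuscle myosin II pulls on filaments that tropomyosin, filamin, actinin and plastin stabilise or bundle. In megakaryocytes this machinery is known for the podosomes and invaginated membranes of the mature cell, for the switch from cytokinesis to endomitosis, and for the release and size of platelets.

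Between genotypes, 6 members rose and 6 fell in the libraries labelled knockout. Those that rose were the bundling proteins Palld and Lcp1, the second nonmuscle myosin heavy chain Myh10, the severing protein Gsn, the membrane linker Msn and the second profilin Pfn2. Those that fell were Tpm2, Coro1a, Cfl1, Cnn2, Wdr1 and Pfn1, most of them abundant genes of filament turnover. The test was edgeR's quasi-likelihood F-test on all genes, with Cre model and genotype as terms and Benjamini-Hochberg adjustment at 0.05. It had 2 libraries per genotype, and its error comes from the disagreement of the models over the change, moderated across genes. Each library carries its own genotype and Cre label, and no group has a replicate. The p-values therefore measure the spread between these libraries, in which differences of animals, Cre models and technique cannot be told apart. Of the members, 52 passed the filter on low counts. The 12 called were 23.1% of them, against 22.2% of all 15063 genes tested (12.6% higher and 9.59% lower), so the share called was close to that of all genes. The median log2 fold change of the members was -0.24 against -0.02 over all genes. Of 52 estimates 38 were below 0 (73.1%, against 51.9% over all genes). In CPM, both libraries of one genotype lay past both of the other in 23 members (7 higher and 16 lower), or 44.2%. Over all genes this share was 47.1% (23.4% higher and 23.7% lower).

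Few of these calls held in fits without a library or without the Cre model term. The fits without a library drop the Cre model term, and the lone sample of a genotype is then assumed to vary like the pair of the other. Without the PF4-Cre wild-type library 2 members rose and 2 fell, without the PF4-Cre knockout 5 and 0, without the ROSA-Cre wild-type 5 and 0, and without the ROSA-Cre knockout 2 and 0. Palld was called in all 4 of these fits, Lcp1 in 3 (not without the ROSA-Cre knockout), Myh10 and Gsn in 2 (without the PF4-Cre knockout and without the ROSA-Cre wild-type), Msn in 1 (without the PF4-Cre knockout) and Coro1a in 1 (without the PF4-Cre wild-type). Cfl1, Cnn2, Wdr1, Pfn1, Tpm2 and Pfn2 were called in none of them. With all libraries and no Cre model term, Palld alone was called, and over all 15063 genes 158 were called higher and 4 lower. The fits without a library lack that term too, so they cannot show whether a call rests on 1 library. Palld passed the filter on low counts through the knockouts, so its calls could hardly have gone the other way.

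**Figure D1:**
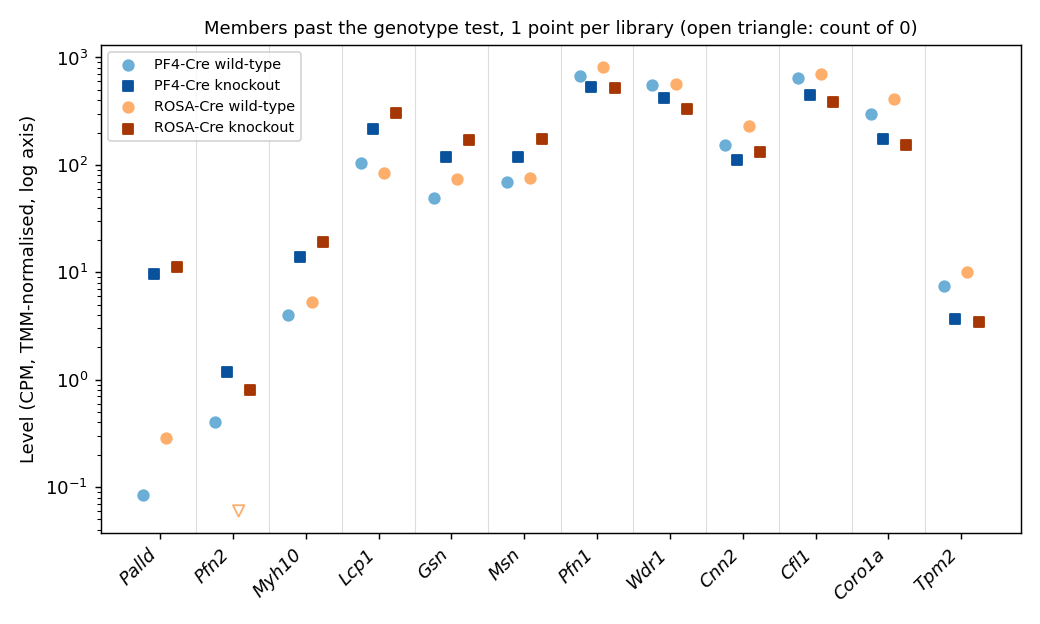
Level of the 12 members past the genotype test in each library, in CPM scaled to TMM-normalised library sizes on a log axis; circles are wild-type, squares are knockout, and the open triangle marks a count of 0. In each of these genes both squares lie on the same side of both circles.

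**Figure D2:**
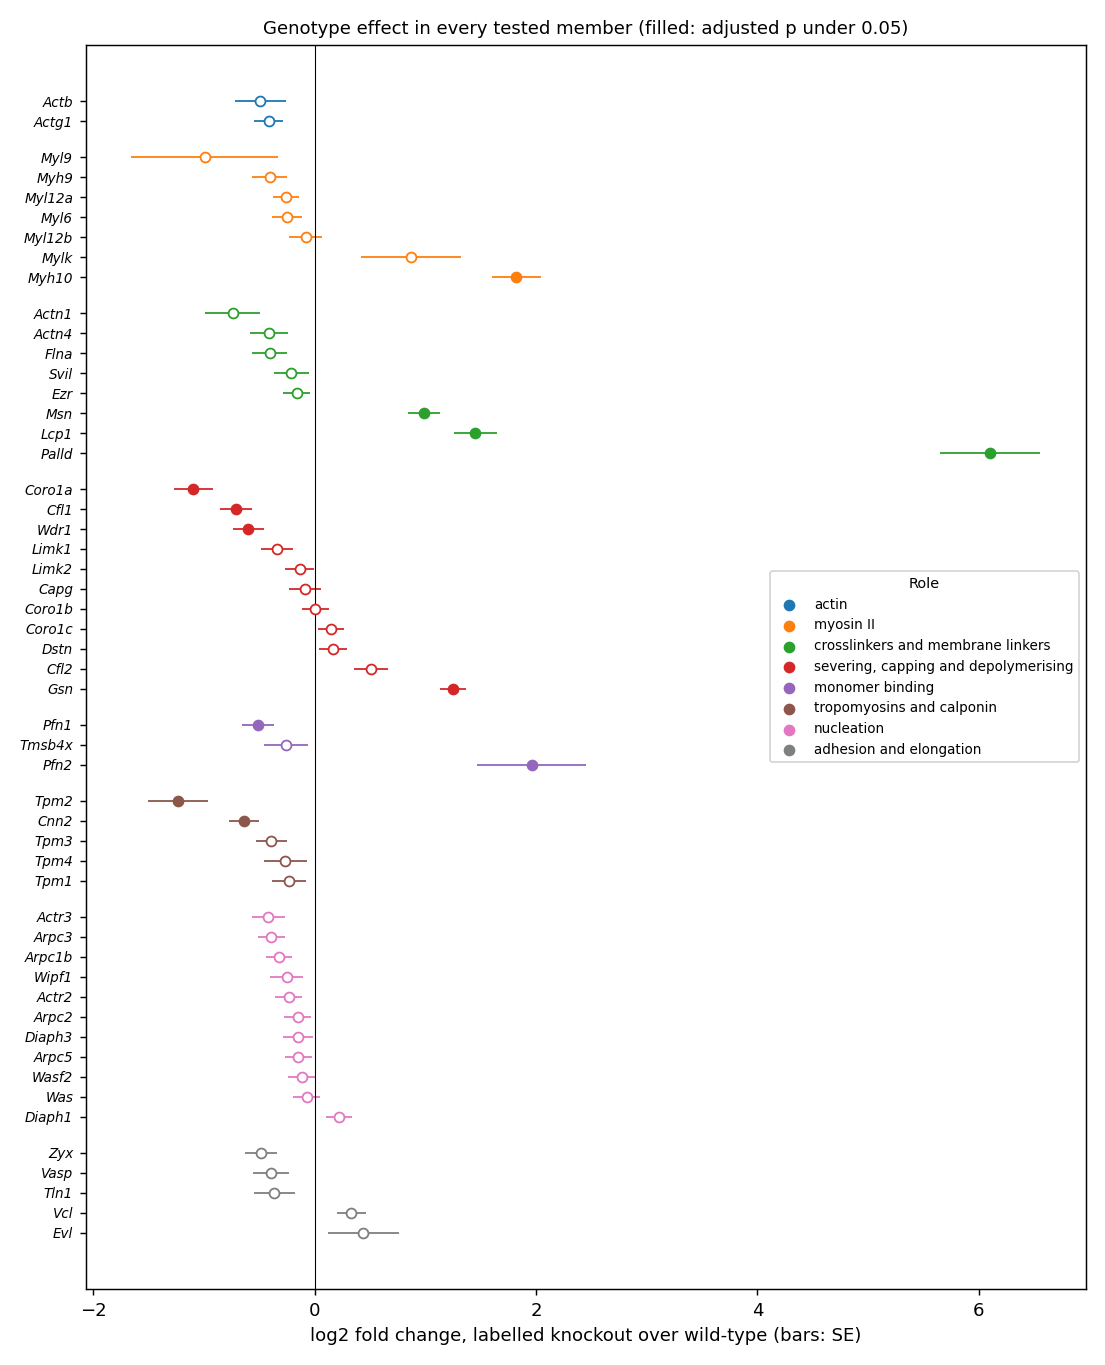
log2 fold change of labelled knockout over wild-type (x axis) with its standard error for the 52 tested members, grouped by role and with filled symbols for adjusted p under 0.05. Palld lies far to the right at 6.10, and 38 of the estimates are below 0 (73.1%, against 51.9% over all genes).

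Both cytoplasmic actins were estimated lower without passing the test. Actb, the beta-actin of nearly all cells, had 4632, 3612, 5653 and 3672 CPM, so that each knockout lay below its own wild-type and also below the other model's. Its log2 fold change was -0.49 (SE 0.23, adjusted p = 0.164). Gamma-actin, Actg1, had 281, 231, 438 and 299 CPM, where the ROSA-Cre knockout lay above the PF4-Cre wild-type and the genotypes overlapped, with a change of -0.42 (SE 0.13, adjusted p = 0.0588). Actg1 made up 5.72, 6.02, 7.19 and 7.52% of the counts of the pair. Of the 50-base stretches in annotated Actg1 transcripts, 37.4% also stand in a transcript of another gene, most of them pseudogenes, against 9.12% for Actb. Reads from such stretches may have been dropped or split, so the level of Actg1 is uncertain.

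Among the genes of myosin II, the motor that contracts actin filaments, Myh10 rose. It encodes the heavy chain IIB, which is known to be silenced as megakaryocytes become polyploid. Its level was 4.03, 14.002, 5.32 and 19.2 CPM (241, 847, 131 and 431 counts). Both knockouts were well above both wild-types, and the ratio within a model was 3.47 (3.01 to 4.02) with PF4-Cre and 3.62 (2.97 to 4.43) with ROSA-Cre, where the brackets are 95% counting intervals. The log2 fold change was 1.82 (SE 0.22, adjusted p = 0.00297). Myh9, the heavy chain IIA whose mutation causes large platelets in people, was far more abundant, with 816, 699, 1548 and 1028 CPM and a change of -0.41 (SE 0.16, adjusted p = 0.114). Of the counts of both heavy chains, Myh10 held 0.492% (0.432 to 0.558) and 1.96% (1.84 to 2.1004) in the PF4-Cre pair and 0.343% (0.287 to 0.406) and 1.84% (1.67 to 2.02) in the ROSA-Cre pair (95% exact binomial intervals).

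The light chains were not called. Myl6, the essential light chain, had 335, 312, 442 and 336 CPM, and the regulatory light chain Myl12a had 133, 115, 153 and 124 CPM, both with lower knockouts within each model. Myl12b, its near-copy, had 172, 137, 141 and 159 CPM, lower in the PF4-Cre knockout and higher in the ROSA-Cre one. Shared 50-base stretches make Myl12a and Myl12b uncertain (16.4% and 25.4% of their transcripts' stretches occur in another annotated gene). For Myl12b, all of these also stand in a second annotated gene of the same name. Myl9, the smooth muscle form of the regulatory chain, was at the edge of detection with 15, 0, 4 and 9 counts, which gives no order of the genotypes. Mylk, the kinase that switches myosin II on by phosphorylating its light chain, went apart in the models. It went from 3036 to 11823 counts in PF4-Cre, a ratio of 3.85 (3.697 to 4.01), and had 1581 and 1201 in ROSA-Cre, a ratio of 0.835 (0.774 to 0.9005). The PF4-Cre knockout was thus the one library that stood high (50.8, 195, 64.2 and 53.6 CPM), and the effect over both models was 0.87 (SE 0.45, adjusted p = 0.2096). It was called without either ROSA-Cre library in turn.

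Of the 8 crosslinkers and membrane linkers, 3 rose and 0 fell. Palld encodes palladin, an actin-bundling scaffold of stress fibres and podosomes (chromosome 8 from 61511433 to 61902690, minus strand, GRCm38). It had 5 and 7 counts in the wild-type libraries and 586 and 253 in the knockouts, or 0.0837, 9.69, 0.284 and 11.3 CPM. The gene was near silent in both wild-types and clearly read in both knockouts. Ratios were 116 (49.3 to 358) with PF4-Cre and 39.7 (18.999 to 99.8) with ROSA-Cre, and the log2 fold change was 6.10 (SE 0.45, adjusted p = 0.00038). It passed the filter on low counts through the knockouts, and so did Pfn2, described below. In the knockouts its level per kilobase of exon (0.941 and 1.098 CPM per kb) was below that of Actn1, an actinin, in the same libraries (4.94 and 5.84).

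RefSeq (GRCm38.p6) gives Palld 3 starts, and gene counts do not say which was used. The 250 bases before each are shown because Palld had the largest change, with any AATCAC or its reverse complement GTGATT in capitals, a short word holding the AATC core that GFI1 and GFI1B proteins bind.
Palld window 1 (chr8:61902708-61902957, minus strand): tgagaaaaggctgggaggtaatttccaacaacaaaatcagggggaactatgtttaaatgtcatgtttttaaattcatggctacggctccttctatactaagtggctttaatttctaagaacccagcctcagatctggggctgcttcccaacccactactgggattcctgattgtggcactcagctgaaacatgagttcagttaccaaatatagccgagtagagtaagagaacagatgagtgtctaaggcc
Palld window 2 (chr8:61760090-61760339, minus strand): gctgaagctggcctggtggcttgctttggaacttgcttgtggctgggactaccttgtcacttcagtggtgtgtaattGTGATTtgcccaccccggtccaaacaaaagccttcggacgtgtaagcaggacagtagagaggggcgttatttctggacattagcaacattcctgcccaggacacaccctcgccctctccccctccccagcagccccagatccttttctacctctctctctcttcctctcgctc
Palld window 3 (chr8:61591140-61591389, minus strand): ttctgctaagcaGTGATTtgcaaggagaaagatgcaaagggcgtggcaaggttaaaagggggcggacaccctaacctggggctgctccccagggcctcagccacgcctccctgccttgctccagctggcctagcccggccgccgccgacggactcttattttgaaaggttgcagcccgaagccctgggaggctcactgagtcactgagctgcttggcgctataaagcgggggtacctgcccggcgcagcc
The word stands 173 bases before the second start and 238 before the third, on the strand opposite to the gene, and not in the window of the first. On either strand it was found in 5 of 63 member windows (7.94%) and in 9.14% of all 32851 windows of that length, so it was no more frequent among the members. The genes with a match were Palld, Myh10, Pfn2 and Limk2. A match is a stretch of letters, not a measured site. RefSeq windows were found for 49 of the 53 members.

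Lcp1, or L-plastin, bundles actin in blood cells. Its level was 103, 214, 84.8 and 307 CPM, with both knockouts above both wild-types. The ratio was 2.07 (2.01 to 2.13) with PF4-Cre and 3.62 (3.45 to 3.803) with ROSA-Cre, intervals that do not overlap, and the log2 fold change was 1.45 (SE 0.19, adjusted p = 0.00409). Moesin, Msn, which ties filaments to the plasma membrane, had 69.1, 117, 76.1 and 176 CPM and rose (log2 fold change 0.98, SE 0.14, adjusted p = 0.00564), again with no overlap of the genotypes. Its relative Ezr, ezrin, had 126, 106, 144 and 136 CPM and was not called (log2 -0.16, SE 0.12, adjusted p = 0.371). Msn therefore held 35.5, 52.6, 34.6 and 56.3% of the counts of that pair, and was the larger part of it only in the knockouts. The filamin Flna, which links the von Willebrand factor receptor of platelets to actin, had 1197, 981, 1720.5 and 1195 CPM, and each knockout lay below its wild-type without a call (log2 -0.41, SE 0.16, adjusted p = 0.113). Actn1, whose mutation in people gives few and large platelets, had 31.3, 27.4, 79.8 and 32.3 CPM. Its ROSA-Cre wild-type stood high, the other libraries lay close together, and the change of -0.74 (SE 0.25, adjusted p = 0.0751) did not pass, though it was called without the PF4-Cre wild-type library. Actn4 (log2 -0.42, SE 0.17) and the membrane-bound bundler Svil (log2 -0.21, SE 0.16) were not called either.

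Of the 11 genes that sever, cap or depolymerise filaments or control those that do, 1 rose and 3 fell. Gelsolin, Gsn, which cuts filaments and caps their fast-growing ends in the presence of calcium, had 49.4, 119, 73.3 and 172 CPM. Both knockouts were above both wild-types, and the models gave like ratios, 2.42 (2.32 to 2.52) and 2.34 (2.22 to 2.48). The log2 fold change was 1.25 (SE 0.12, adjusted p = 0.00123). Capg, a capping protein of the same family that does not cut, had 43.002, 37.1, 50.9 and 52.7 CPM with overlapping genotypes (log2 -0.08, SE 0.14, adjusted p = 0.711).

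Coro1a, the coronin of blood cells that works with cofilin and Arp2/3, fell. It had 297, 175, 413 and 153 CPM, so both knockouts lay below both wild-types, and the lowest value was that of the ROSA-Cre knockout. Ratios were 0.5901 (0.576 to 0.604) and 0.3702 (0.356 to 0.385), and the log2 fold change was -1.10 (SE 0.17, adjusted p = 0.007197). Coro1b had 109.5, 102, 159.9 and 172 CPM (log2 0.00, SE 0.12, adjusted p = 0.985) and Coro1c 221, 238, 295 and 337 CPM (log2 0.15, SE 0.12, adjusted p = 0.404), neither of them called. Among the counts of these 3 coronins, Coro1a held 47.3, 33.98, 47.6 and 23.1%, and Coro1c 35.2, 46.1, 34.01 and 50.9%. Coro1c was the larger of this pair in both knockouts and the smaller in both wild-types. Coro1b shares 432 exonic bases with Ptprcap on the same strand, and reads there could have been set aside as ambiguous. No promoter word of those searched was found before the first Coro1a start, shown here as the window of the gene with the second largest fall.
Coro1a window 1 (chr7:126704817-126705066, minus strand): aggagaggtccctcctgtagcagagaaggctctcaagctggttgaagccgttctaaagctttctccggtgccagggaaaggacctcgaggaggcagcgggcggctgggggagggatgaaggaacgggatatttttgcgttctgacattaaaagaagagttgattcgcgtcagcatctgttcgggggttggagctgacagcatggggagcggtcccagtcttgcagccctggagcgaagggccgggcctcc

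Coro1a is also read in neutrophils and monocytes, and some markers of those cells moved with genotype. The 11 neutrophil markers summed to 1738, 1069.5, 1897 and 495 CPM, and 4 of them fell. The 4 that fell, Elane, Mpo, Prtn3 and Ctsg of the early granules, together had knockout to wild-type ratios of 0.289 (PF4-Cre) and 0.251 (ROSA-Cre). The other 7 had 1.18 and 0.2805. The 9 monocyte and macrophage markers summed to 124, 118, 144 and 55.7 CPM, of which 3 fell and 0 rose, and no marker of either list was at 0. The sort kept lineage-negative cells with cKit, CD41 and CD61, and its purity was not tested here. The part of these cells in the falls of Coro1a, Cfl1, Cnn2, Wdr1 and Pfn1 was not tested. In bulk RNA, fewer cells of a type and less RNA per cell cannot be told apart. Of 12 red cell markers 3 rose (the globins Hba-a1, Hbb-bs and Hbb-bt) and 5 fell, with sums of 73.8, 207, 136 and 311 CPM. The 8 endothelial markers summed to 159, 269, 131 and 183 CPM and 3 rose (Emcn, Plvap and Egfl7), while the defining Cdh5 of vessel lining had 5, 5, 0 and 0 counts. The 11 stromal and muscle markers summed to 35.6, 14.8, 24.5 and 9.15 CPM and 3 fell, with Acta2 at 5, 14, 2 and 0 counts and Myh11 at 10, 4, 2 and 0. Among the 14 megakaryocyte markers, Itgb3, Gp6 and Treml1 rose, and 2 fell, the platelet factor Pf4 by 0.99 on the log2 scale and Gp9 by 0.60. Of 10 stem and progenitor markers 3 rose (Procr, Mecom and Fgd5) and 0 fell, with sums of 791, 971, 615 and 1010.3 CPM. The 7 mast cell and basophil markers summed to 63.7, 88.2, 83.7 and 109.5 CPM with 2 higher, and the 8 lymphoid markers to 101, 53.7, 118 and 100.5 CPM with 0 higher and 0 lower, where the T cell gene Cd3e had 1, 3, 0 and 0 counts. The part of stem, mast or endothelial cells in the rises of Palld, Lcp1, Myh10, Gsn and Msn was not tested. The part of muscle cells in the levels of Palld and Mylk was not tested.

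Cfl1, the main cofilin of non-muscle cells, which severs aged filaments, fell. Its level was 641, 443, 709 and 385 CPM, with no overlap of genotypes, and its change -0.71 (SE 0.14, adjusted p = 0.0169). Wdr1, the cofactor that speeds cofilin's work and whose loss disturbs platelet formation in mice, had 557, 416, 566 and 330.1 CPM and a change of -0.60 (SE 0.14, adjusted p = 0.0263), also without overlap. The muscle cofilin Cfl2 had 34.1, 48.4, 14.5 and 20.7 CPM. Its knockouts were higher within each model by like ratios, 1.42 (1.34 to 1.503) and 1.43 (1.24 to 1.64), but the ROSA-Cre knockout lay below the PF4-Cre wild-type, and the change of 0.51 (SE 0.16, adjusted p = 0.0557) fell just short of the threshold. It was called with a filter of at least 5 CPM (adjusted p = 0.0293) and with library totals as scaling (0.04005). Dstn, or destrin, the other protein of this family, had 112, 137, 81.3 and 83.8 CPM (log2 0.16, SE 0.13, adjusted p = 0.386). By counts, Cfl1 held 81.4, 70.5, 88.1 and 78.6% of the 3 genes, Cfl2 4.32, 7.703, 1.803 and 4.23% and Dstn 14.3, 21.8, 10.1 and 17.1%. In both models, then, Cfl1 remained the larger part and its share was smaller in the knockout. The LIM kinases Limk1 and Limk2, which inactivate cofilin, were not called (log2 -0.34, SE 0.15, and -0.13, SE 0.13).

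**Figure D3:**
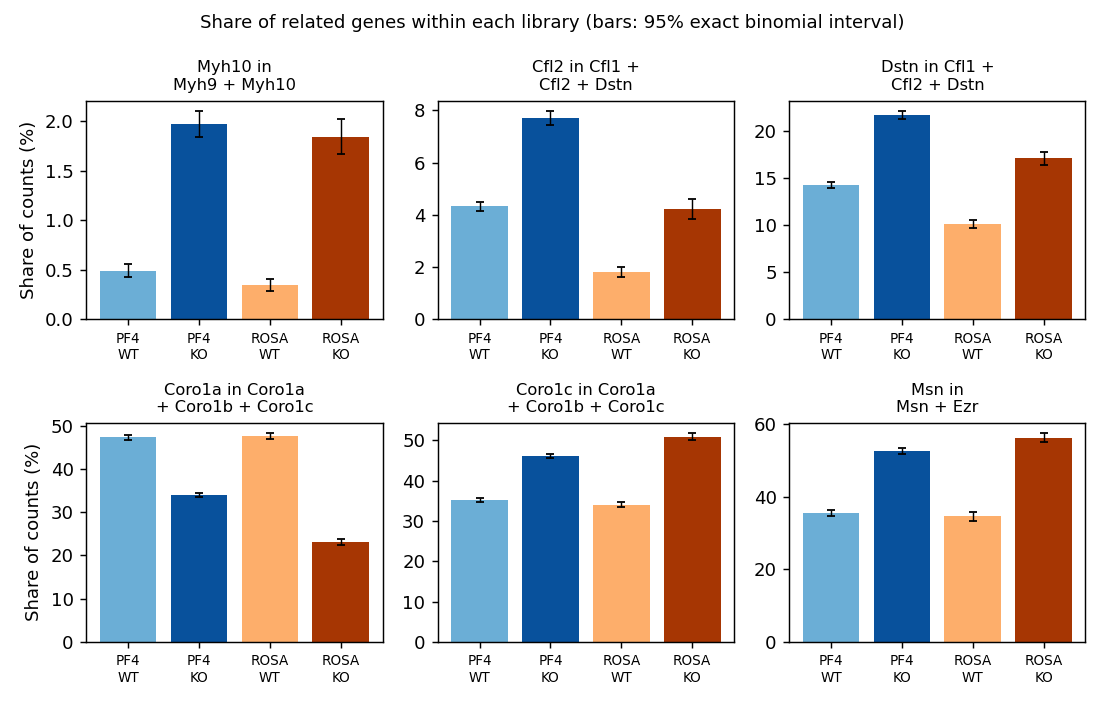
Share of counts (%) that 1 gene takes among related genes within each library, as bars from 0 with 95% exact binomial intervals, which cover counting error only. In both Cre models the knockout had the larger share of Myh10, Cfl2, Dstn, Coro1c and Msn and the smaller share of Coro1a.

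Among the monomer-binding genes, profilin Pfn1, which feeds actin to growing ends, fell. It had 677, 530.2, 818 and 517 CPM, with both knockouts below both wild-types, and a change of -0.51 (SE 0.14, adjusted p = 0.0447). That call ended with library totals as scaling (adjusted p = 0.0654), with no filter on low counts (0.0805) and with a filter of at least 5 CPM (0.0526). Pfn2, the profilin of neurons, was rare, with 24, 71, 0 and 18 counts, and was at 0 in the ROSA-Cre wild-type. Its PF4-Cre ratio was 2.92 (1.82 to 4.86), and in ROSA-Cre it was at least 6.59-fold higher in the knockout, taking 3 counts as the floor of that library. The fitted change of 1.96 (SE 0.49, adjusted p = 0.0312) depends on how a count of 0 is handled. It was not called by DESeq2's Wald test (adjusted p = 0.0963), the older quasi-likelihood method (0.0837) or without a filter (0.108). Thymosin Tmsb4x, which keeps monomers from assembling, had the highest level per length of all members in the PF4-Cre pair and in the ROSA-Cre knockout (2396, 2214, 1882 and 1428 CPM per kb). Its change of -0.26 (SE 0.20, adjusted p = 0.387) was not called.

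The tropomyosins, which coat filaments and decide which motors and severing proteins reach them, were all estimated lower, and Tpm2 fell. It was the rarest, with 441, 221, 246 and 77 counts or 7.38, 3.65, 9.996 and 3.44 CPM, both knockouts below both wild-types, and a change of -1.24 (SE 0.27, adjusted p = 0.0214). Tpm4, the main form of platelets, had 143, 157, 155 and 96.3 CPM, higher in the PF4-Cre knockout and lowest in the ROSA-Cre knockout (log2 -0.27, SE 0.19, adjusted p = 0.357). Tpm3 (log2 -0.39, SE 0.14) and Tpm1 (log2 -0.23, SE 0.15) were not called. Tpm3 was the most counted of the 4, with 55.7, 50.9, 58.9 and 59.6% of their counts, and 23.2% of its 50-base stretches also occur elsewhere, mainly in Tpm3-rs7, so its level is uncertain. Calponin 2, Cnn2, which binds filaments and restrains myosin, fell, its level being 152, 111, 232 and 131 CPM (log2 -0.63, SE 0.14, adjusted p = 0.0192). The genotypes did not overlap. Without a filter on low counts Cnn2 and Wdr1 were not called (adjusted p = 0.0536 and 0.0582).

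Several of these genes are textbook targets of serum response factor (SRF), which binds the CArG box and is switched on by the cofactor MRTF-A when free actin monomers run low. SRF and MRTF-A are known to be needed for megakaryocyte maturation. The gene Srf went from 4485 to 3442 counts with PF4-Cre, 3137 to 1580 with ROSA-Cre (log2 -0.62, SE 0.15, adjusted p = 0.0263), and Mrtfa from 2454 to 1816 counts with PF4-Cre, 1659 to 976 with ROSA-Cre (log2 -0.54, SE 0.14, adjusted p = 0.0341), so both fell. Mrtfb was not called (log2 0.16, SE 0.19). On either strand, a CArG box stood in 5 of 63 member windows (7.94%), of Actg1, Cnn2, Myl6, Myl9 and Vcl, against 1.47% of all windows. No test compared these shares, and the Myl6 window with the box lies wholly inside annotated exons. Of those genes Cnn2 fell and the others were not called. Any part of SRF or MRTF-A in the changes of the members was not tested. The windows of Cnn2 and of Vcl, whose estimates had opposite signs, are shown with the box in capitals.
Cnn2 window (chr10:79988350-79988599, plus strand): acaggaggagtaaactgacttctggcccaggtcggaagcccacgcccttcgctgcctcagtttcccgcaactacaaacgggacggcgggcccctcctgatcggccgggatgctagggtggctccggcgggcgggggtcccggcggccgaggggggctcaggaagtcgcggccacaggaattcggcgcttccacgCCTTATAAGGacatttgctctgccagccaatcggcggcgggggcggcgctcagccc
Vcl window (chr14:20929148-20929397, plus strand): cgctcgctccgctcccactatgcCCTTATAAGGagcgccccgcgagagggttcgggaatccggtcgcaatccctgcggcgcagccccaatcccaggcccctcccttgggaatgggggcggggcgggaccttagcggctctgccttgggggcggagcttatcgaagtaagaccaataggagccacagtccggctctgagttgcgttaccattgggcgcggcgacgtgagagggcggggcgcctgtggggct
The box lies 56 bases before the start of Cnn2 and 227 before that of Vcl. The word AGATAA, a form of the GATA motif, stood on either strand in 1 member window, that of Tpm3, against 9.99% of all windows. The 4 members with no window were Actb, Coro1b, Diaph1 and Svil.

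None of the 11 tested nucleation genes was called in either direction. By edgeR 3 of them had an unadjusted p under 0.05, beside 5564 of all 15063 genes tested. The estimates of the 11 ran from -0.42 to 0.22. The Arp2/3 subunits that start branches were all estimated lower. Actr3 had 351, 308, 391 and 248 CPM (log2 -0.42, SE 0.15, adjusted p = 0.0839), Arpc3 273, 218, 265 and 193 CPM (log2 -0.39, SE 0.12, adjusted p = 0.0549) and Arpc1b, the form of blood cells, 309.7, 253, 330.4 and 259 CPM (log2 -0.32, SE 0.12, adjusted p = 0.0953). In Actr3, Arpc3, Arpc1b and Actr2 both knockouts lay below both wild-types. Arpc2 (-0.15), Arpc5 (-0.15) and Actr2 (-0.24) were closer to 0. Was, the blood cell activator of Arp2/3 whose loss causes Wiskott-Aldrich syndrome with small platelets, had 145, 145, 159 and 143 CPM and an estimate of -0.07 (SE 0.12). Its partner Wipf1 (-0.25) and Wasf2 of the WAVE complex (-0.12) were not called. Wasf1 had 0, 5, 0 and 2 counts and was too low to test. The formin Diaph1 had 214, 248, 332 and 387 CPM, higher in the knockout of each model with ratios of 1.16 and 1.17 without a call (log2 0.22, SE 0.12, adjusted p = 0.229). Diaph3, the formin of the cytokinetic furrow, had 103, 83.01, 91.2 and 91.8 CPM (log2 -0.15, SE 0.13, adjusted p = 0.4498).

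The 5 genes of adhesion sites and filament elongation gave no call either. By edgeR 3 of them had an unadjusted p under 0.05, beside 5564 of all 15063 genes tested. Talin, Tln1, the activator of platelet integrins, had 1949, 1715, 2827 and 1941 CPM (log2 -0.36, SE 0.19, adjusted p = 0.209), lower in each knockout than in its own wild-type. Vinculin, Vcl, which ties talin to actin, had 516, 635, 468 and 602 CPM. Both its knockouts were above both wild-types by ratios of 1.23 (1.21 to 1.25) and 1.29 (1.25 to 1.32), yet the change of 0.33 (SE 0.13, adjusted p = 0.1099) did not pass. Zyx, zyxin of mature adhesions, had 108, 90.8, 195 and 118 CPM (log2 -0.48, SE 0.15, adjusted p = 0.05403), and Vasp, which lengthens filaments and is phosphorylated when platelets are inhibited, had 201, 187, 324 and 201 CPM (log2 -0.40, SE 0.16, adjusted p = 0.119). Evl, a relative of Vasp, was rare with 174, 322, 141 and 121 counts and moved apart in the models (log2 0.44, SE 0.32, adjusted p = 0.357). Vcl shares 2090 exonic bases with Ap3m1 on the other strand, and the strand setting of the counting is not given in the sources used here.

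DESeq2's Wald test on the same model called 10 members lower and 5 higher. The added falls were Actb (adjusted p = 0.0106), Actn1 (0.0266), Flna (0.0433) and Zyx (0.0453), and Pfn2 was lost.

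Taken model by model, most members went the same way, with most ratios further from 1 with ROSA-Cre. With 1 library per group these ratios have no replicate check. Of 50 members with counts in all libraries, 10 were higher in both knockouts, 30 lower in both and 10 went opposite ways, or 20%, 60% and 20%. Over all 14850 tested genes with counts in every library, these shares were 36.1%, 40.9% and 23%. The ROSA-Cre ratio was further from 1 in 37 members (74%, against 67.9% of all genes). Counting intervals of the models did not overlap in 37 members (74%, against 41.9%), a share that moves with how many reads a gene has. Coro1a had ratios of 0.5901 (PF4-Cre) and 0.3702 (ROSA-Cre), Actn1 had ratios of 0.873 and 0.404, Actn4 0.933 and 0.599, and Vasp 0.929 and 0.621. The Lcp1 and Msn ratios were also further from 1 with ROSA-Cre, whereas Gsn, Myh10, Cfl2 and Diaph1 gave intervals that overlapped between the models. Mylk was the widest apart, with a PF4-Cre ratio 4.61 times that of ROSA-Cre. A test of these differences is not possible with 1 library per group, since an interaction term leaves no residual degree of freedom.

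**Figure D4:**
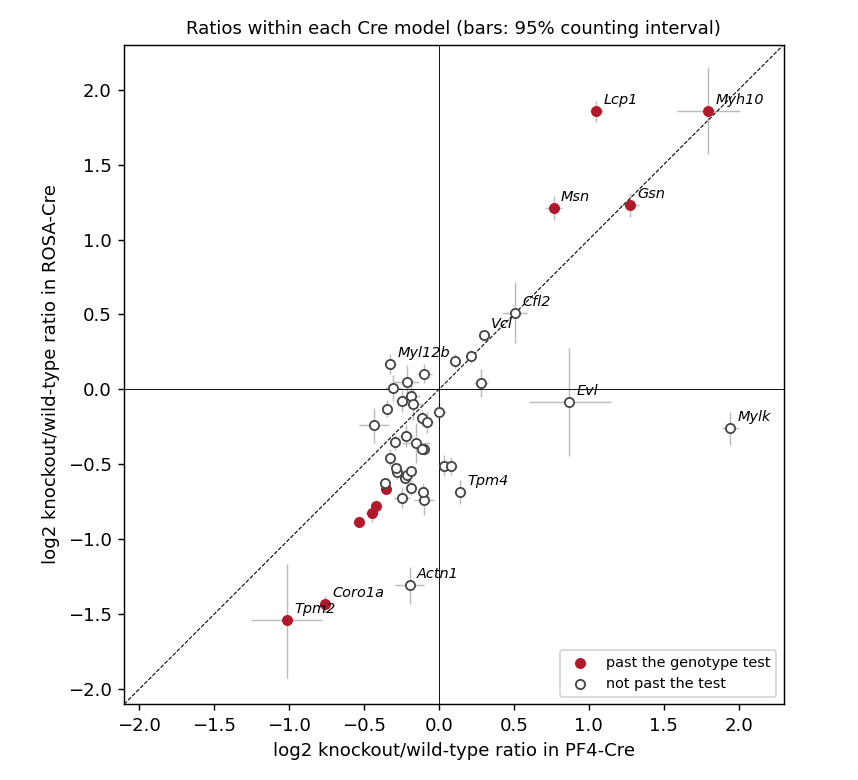
Knockout over wild-type ratio of each member within PF4-Cre (x axis) and within ROSA-Cre (y axis), on a log2 scale with 95% counting intervals; the dashed line marks equal ratios. Palld, with larger ratios in both models, lies outside the plot, and Pfn2, Myl9 and Wasf1, each with a count of 0, are left out. Open symbols mostly lie below the dashed line in the lower left, while Mylk lies alone at the right below the horizontal line.

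Between the Cre models at equal genotype, 9 members were higher in ROSA-Cre and 2 lower, from the same edgeR fit (21.2% called, against 18.7% of all genes, 8.33% higher and 10.4% lower). Those higher in ROSA-Cre were Limk1 (log2 0.84, SE 0.15, adjusted p = 0.0119), Myh9 (log2 0.74, SE 0.16, adjusted p = 0.0233), Wasf2 (log2 0.67, SE 0.12, adjusted p = 0.0137), Coro1b (log2 0.65, SE 0.12, adjusted p = 0.0153) and Diaph1 (log2 0.64, SE 0.12, adjusted p = 0.0148), as well as Zyx at 0.62, Gsn at 0.55, Actg1 at 0.51 and Coro1c at 0.46. The cofilin relatives Cfl2 (log2 -1.23, SE 0.16, adjusted p = 0.00593) and Dstn (log2 -0.59, SE 0.13, adjusted p = 0.0224) were lower. In Cfl2 both ROSA-Cre libraries (14.5 and 20.7 CPM) lay far below both PF4-Cre libraries (34.1 and 48.4), and in Diaph1 both lay above. None of these 11 calls held without the genotype term, where 0 of all 15063 genes were called higher and 1 lower. Nor did any hold with 1 library left out (the wild-type or knockout of either model). Those fits lack the genotype term too and leave a lone sample of 1 model, so they cannot decide on these calls. Without the ROSA-Cre knockout the sign of Gsn turned (-0.20). The models differ in Cre allele, depth and whatever else set these libraries apart, and these cannot be told apart.

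Per kilobase of exon, member levels spanned from 0 to 2396 CPM per kb across the libraries, with medians of 38.2, 37.8, 45.6 and 42.3. Tmsb4x and Actb led in every library, Actb with 1729, 1348, 2110.0 and 1371 CPM per kb. Their order turned between the wild-types, where Tmsb4x was ahead in PF4-Cre and Actb in ROSA-Cre. Next came Pfn1 (282, 220.5, 340.1 and 215), Cfl1 (226, 156, 249 and 135) and Tln1 (199, 175, 288 and 198), whose orders also differed between libraries. Evl, Myh10, Palld, Myl9, Pfn2 and Wasf1 were all under 2 CPM per kb in each library, and Tpm2 was so in both knockouts (1.26 and 1.18). All members together took 1.96, 1.81, 2.38 and 1.81% of gene counts.

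The other actin genes listed here had a larger share called than the members. Over 8 lists, 130 genes were tested, of which 34 rose and 16 fell (38.5%, beside 22.2% of all genes). Their median log2 fold change was 0.16. The lists were chosen with earlier results of these data known, so a larger share called may come from that choice. No test compared the lists with other genes. Without the Cre model term 8 rose and 0 fell. With each library left out in turn (PF4-Cre wild-type and knockout, then ROSA-Cre wild-type and knockout), 11, 17, 13 and 13 rose and 5, 3, 1 and 1 fell.

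Among 23 further crosslinkers and membrane skeleton genes, 10 rose and 5 fell. Ablim1, which links filaments to LIM-domain proteins, went from 251 to 1963 counts with PF4-Cre, 38 to 1343 with ROSA-Cre (log2 3.83, SE 0.46, adjusted p = 0.00269), and Marcks, a membrane-bound filament linker, from 451 to 1632 counts with PF4-Cre, 188 to 1183 with ROSA-Cre (log2 2.28, SE 0.25, adjusted p = 0.00206). Epb41, protein 4.1 of the red cell skeleton, rose by 0.82 (SE 0.12). Of 12 formins and Ena relatives 5 rose and 1 fell. Fmnl2 went from 337 to 1502 counts with PF4-Cre, 98 to 653 with ROSA-Cre (log2 2.46, SE 0.24, adjusted p = 0.001397), Fmnl3 rose by 0.87 (SE 0.16), and Fmn1 had 15, 64, 1 and 42 counts.

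Of 21 other myosins and regulators 5 rose and 2 fell. The pointed-end motor Myo6 went from 951 to 8083 counts with PF4-Cre, 517 to 3158 with ROSA-Cre (log2 2.91, SE 0.15, adjusted p = 0.000129), Myo5c, a carrier of secretory granules, from 692 to 3737 counts with PF4-Cre, 213 to 1261 with ROSA-Cre (log2 2.55, SE 0.17, adjusted p = 0.000261), and Myh14, the heavy chain IIC, from 3 to 182 counts with PF4-Cre, 5 to 152 with ROSA-Cre (log2 5.39, SE 0.54, adjusted p = 0.001397). Of 21 adhesion linkers 5 rose and 1 fell. Fermt2, a kindlin mostly of tissues outside the blood, had 11, 491, 0 and 58 counts, the focal adhesion kinase Ptk2 rose by 1.72 (SE 0.17), and the tensin Tns1 by 1.14 (SE 0.12). Of 22 capping and turnover genes 3 rose and 4 fell, with the gelsolin relative Scin at 2.57 (SE 0.27, adjusted p = 0.00171), the coactosin Cotl1 at -1.72 (SE 0.25, adjusted p = 0.00553) and Gmfg, which removes Arp2/3 branches, at -0.75 (SE 0.12). Of 18 Arp2/3 and WAVE partners 3 rose and 1 fell, Arpc4 having fallen by 0.59 on the log2 scale (SE 0.13), while Abi2 and Nckap1 of the WAVE complex rose by 0.48 (SE 0.12) and 0.46 (SE 0.12). Of 6 SRF family and cofactor genes 0 rose and 2 fell, those being Srf and Mrtfa. Of 7 testable muscle genes, 3 were called higher and 0 lower. They were troponins, Tnni1 with 15, 353, 3 and 74 counts, Tnnt2 with 0, 24, 0 and 23 and Tnnc1 with 5, 20, 1 and 10. These troponins, Fermt2, Myh14 and Fmn1 passed the filter on low counts through the knockouts, so their calls could hardly have gone the other way.

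**Figure D5:**
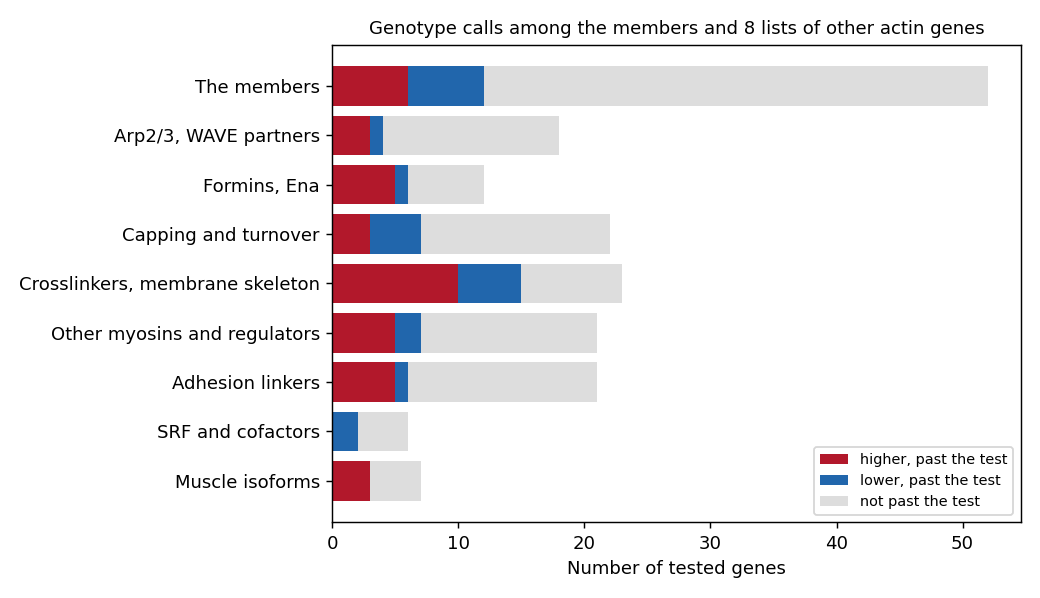
Number of tested genes (x axis) that were higher, lower or not past the genotype test among the members and in 8 lists of other actin genes. The members have 6 higher and 6 lower of 52, and the list of crosslinkers and membrane skeleton genes has 10 higher and 5 lower of 23.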

How the data were processed

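Sorted megakaryocytes gave RNA for paired-end TruSeq stranded mRNA libraries, per the labels' protocols. The authors deposited raw HTSeq read counts per Ensembl gene, 1 table per library. Alignment tools listed in the submitters' processing notes include TopHat2 (version 2.0.10), with mm10 or GRCm38 as build. The strand setting and annotation release of the counting were not given in the sources used here.

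The 5 HTSeq category lines stayed out of library sizes (reads with no gene: 32.1% to 36.2% of unique ones). Symbols, coordinates and exon lengths came from GENCODE M21 (GRCm38), promoter windows from RefSeq. The whole table was fitted with edgeR 4.0.16 in R 4.3.3: filterByExpr by genotype (minimum count 10), TMM, terms for Cre model and genotype, the current quasi-likelihood method, F-tests and Benjamini-Hochberg adjustment, with 1 residual degree of freedom per gene. Each standard error was taken as |log2 fold change| divided by the root of its F statistic. Counting intervals are 95% Clopper-Pearson. The script was tested on simulated data. DESeq2 1.42.0 was an alternative.

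The members and lists were chosen with earlier results of these data known. All members could be named, and in each other list up to 3 genes with the smallest p. Mrtfb, the markers and the genes of the closing section that are no members were named after their values were seen. Promoters are those of the genes with the largest rise and the second largest fall, with few or no bases in annotated exons (windows of Pfn2 and Tpm2 lie wholly or in large part inside them), plus Cnn2 and Vcl, chosen after their motifs were seen. Protein sequences were not used here. Some results, with 1 list of other actin genes among them, are not reported here.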

Additional observations from a re-analysis of the deposited data

Results flagged for a closer look

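In 5 members the knockout moved one way in PF4-Cre and the other way in ROSA-Cre, each by more than counting error, or 10% of those with counts in every library, against 6.07% of all tested genes. With 1 library per group the difference was not tested. Mylk had a knockout to wild-type ratio of 3.85 (PF4-Cre) and 0.835 (ROSA-Cre). Tpm4, the platelet tropomyosin, had 1.102 and 0.622, and Svil, or supervillin, 1.06 and 0.703. The reverse held for Myl12b, at 0.798 and 1.13, and for Coro1b, at 0.935 and 1.08.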

How the results depend on the processing

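The libraries were paired by Cre model in the fit itself, so the fit without that pairing is the one without the Cre model term. Labels carry no replicate numbers, so no replicate block could be added. The genotype calls (6 members higher and 6 lower) kept to within 1.5 times under DESeq2 size factors, library totals, a 5 CPM filter, edgeR's older quasi-likelihood method (chosen after seeing the data) and without red cell, neutrophil and mitochondrial genes. Under DESeq2's Wald test 10 members were lower, with no filter on low counts 3, and without the Cre model term 1 was higher and 0 lower. Leaving out 1 library gave 2 to 5 higher and 0 to 2 lower. For the Cre model effect, the counts of 9 higher and 2 lower became 5 and 1 with no filter. They became 0 and 0 without the genotype term, where 0 of all 15063 genes were called higher and 1 lower. None of these calls held with 1 library left out, in fits that lack that term too. Without the ROSA-Cre knockout the Cre model effect of Gsn was -0.20, and fits that left out 1 library ranged from -0.20 to 1.31. In the other actin lists the 34 higher and 16 lower became 8 and 0 without the Cre model term, the lower ones 8 with no filter, and leaving out 1 library gave 11 to 17 higher and 1 to 5 lower. Each fit without a library has fewer samples and lacks a term; the cause of the other changes was not tested.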

Other observations

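Rarer relatives of the members Lcp1 and Vasp, and of Fermt3, which is no member, rose. They were picked after their values were seen, and whether such relatives rose more often than other genes was not tested. Pls3, the plastin of tissues outside the blood, went from 179 to 519 counts with PF4-Cre, 89 to 506 with ROSA-Cre (log2 2.04, SE 0.32, adjusted p = 0.00666), so it rose together with its blood cell relative Lcp1. Enah, a relative of Vasp, was rare with 29, 154, 10 and 19 counts (log2 2.07, SE 0.44, adjusted p = 0.0191). Fermt3, the kindlin of platelets, had 73432, 70901, 36437 and 26899 counts and was not called (log2 -0.18, SE 0.16, adjusted p = 0.443), whereas Fermt2 rose from 11 and 0 counts in the wild-types to 491 and 58 in the knockouts.

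A calponin and an adducin, also picked after their values were seen, fell. Cnn3, a relative of Cnn2, went from 134 to 45 counts with PF4-Cre, 59 to 8 with ROSA-Cre (log2 -1.90, SE 0.41, adjusted p = 0.0204), and Add2, an adducin of the red cell skeleton, from 106 to 38 counts with PF4-Cre, 118 to 9 with ROSA-Cre (log2 -2.23, SE 0.50, adjusted p = 0.0217). The ratio of Add2 was 0.354 (0.238 to 0.518) with PF4-Cre and 0.0838 (0.0374 to 0.165) with ROSA-Cre, and the counting intervals did not overlap. For Cnn3 they did, at 0.332 (0.231 to 0.468) and 0.149 (0.0615 to 0.313). These differences between the models were not tested.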
